A study of Mus musculus with 6 samples.

Results

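The circadian clock genes other than Per1 taken here are the 8 clock and clock-output genes Clock, Cry1, Cry2, Csnk1d, Csnk1e, Bhlhe40, Dbp and Nfil3, chosen by gene symbol. Every probe set annotated with exactly 1 of these symbols was taken, which gave 14 of the 12422 probe sets on the array and 8 of its 8251 singly annotated genes. They were measured in mIMCD3 cells, an established mouse line of the inner medullary collecting duct, after treatment with aldosterone or with vehicle for 1 h. Aldosterone, a hormone of the adrenal cortex, raises sodium uptake by the distal tubule and collecting duct, and its dose is not given in the sources used here. There were 3 replications of the experiment with 1 aldosterone and 1 vehicle array in each, 3 arrays a group. The labels do not say whether the replications were separate cultures, so the p-values measure only the spread between these arrays, and 6 arrays limit the precision.

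The mammalian clock is a transcriptional feedback loop. CLOCK pairs with BMAL1 on E-box sequences and drives the Per and Cry genes, whose proteins return to the nucleus and repress CLOCK and BMAL1. Casein kinases 1 delta and epsilon, the products of Csnk1d and Csnk1e, phosphorylate PER proteins and so set the pace of the loop. BHLHE40 (DEC1) also binds E-boxes and represses. DBP and NFIL3 (E4BP4) are outputs of the clock that compete for D-box sequences, DBP as an activator and NFIL3 as a repressor. In kidney tubules the clock is known for daily rhythms of sodium and water transport, and Per1 is known there as a target of corticosteroids.

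The RefSeq promoter table of build GRCm38.p6 held start sites for 6 of the 8 genes, Nfil3, Csnk1e, Clock, Cry1, Cry2 and Dbp. Dbp and Nfil3 were picked for their opposite order across the replications, though neither passed the test between replications. Per1 was picked as the clock gene with the largest difference by treatment among those tested here. The 250 bases before the start site are shown for these genes and for both cryptochromes. Each is written 5′ to 3′ on the strand of its gene, and capitals mark the letters CACGTG (E-box), CACGTT or its reverse AACGTG (E′-box). The windows lie at chr10:85185055-85185304 (minus strand) for Cry1, chr2:92434070-92434319 (minus strand) for Cry2, chr7:45704997-45705246 (plus strand) for Dbp, chr13:52981040-52981289 (minus strand) for Nfil3 and chr11:69098699-69098948 (plus strand) for the first of the 2 Per1 start sites in the table.
Cry1: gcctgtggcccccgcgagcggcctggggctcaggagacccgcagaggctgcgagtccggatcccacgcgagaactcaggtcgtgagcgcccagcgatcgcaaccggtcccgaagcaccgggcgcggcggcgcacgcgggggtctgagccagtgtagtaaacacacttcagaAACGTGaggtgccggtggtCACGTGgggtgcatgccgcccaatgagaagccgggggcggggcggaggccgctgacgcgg
Cry2: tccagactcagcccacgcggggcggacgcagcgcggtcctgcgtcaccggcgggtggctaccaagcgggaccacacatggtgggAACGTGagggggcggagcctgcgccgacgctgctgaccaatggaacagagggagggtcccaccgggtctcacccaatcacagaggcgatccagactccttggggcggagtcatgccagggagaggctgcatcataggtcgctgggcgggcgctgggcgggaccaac
Dbp: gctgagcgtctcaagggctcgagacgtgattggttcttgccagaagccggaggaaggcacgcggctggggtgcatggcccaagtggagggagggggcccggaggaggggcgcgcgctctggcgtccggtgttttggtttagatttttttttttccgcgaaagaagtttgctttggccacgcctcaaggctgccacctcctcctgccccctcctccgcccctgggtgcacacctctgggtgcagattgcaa
Nfil3: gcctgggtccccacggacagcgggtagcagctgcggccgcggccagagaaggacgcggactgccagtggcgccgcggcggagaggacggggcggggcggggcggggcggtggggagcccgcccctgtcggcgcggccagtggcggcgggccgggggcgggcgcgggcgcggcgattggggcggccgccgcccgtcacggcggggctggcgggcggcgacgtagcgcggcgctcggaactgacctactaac
Per1: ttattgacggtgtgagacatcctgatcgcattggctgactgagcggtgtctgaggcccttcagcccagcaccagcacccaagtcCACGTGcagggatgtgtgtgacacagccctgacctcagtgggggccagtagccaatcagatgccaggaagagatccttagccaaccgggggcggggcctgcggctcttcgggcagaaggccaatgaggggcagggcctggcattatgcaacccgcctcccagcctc

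The Cry1 window held CACGTG 60 bases before the start site and AACGTG 79 bases before it. The Cry2 window held AACGTG 166 bases before the start site, and the Per1 window shown held CACGTG 166 bases before it. Neither sequence was found in the other Per1 window or in any window of Clock, Csnk1e, Dbp and Nfil3. On both strands of the 32851 promoter windows of 300 bases in the table, CACGTG was found in 7.15% and CACGTT in 4.68%. The D-box letters TTATGTAA (reverse TTACATAA) and TTACGTAA, present in 0.938% and 0.119% of windows, were found in none of the windows of the 6 genes. The steroid receptor palindrome, AGAACA and TGTTCT with 3 bases of any kind between them, present in 0.00913% of windows, was also not found. Its arm TGTTCT, counted also where it lies within the palindrome, is in 19% of windows and was found in 2 of the 4 windows of Csnk1e and in none of the other 5 genes. Those Csnk1e windows overlap and share a match at the same place on the chromosome. These matches describe letters in fixed windows and say nothing of binding.

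Deposited intensities were on a common scale on 5 arrays, with 2% trimmed means of 2488 to 2493. That of the replication 3 aldosterone array was 86.5, and all arrays were scaled to a trimmed mean of 2090.0. Intensities below are these scaled values, and log2 differences are aldosterone minus vehicle on log2(intensity + 53.0). Of the 14 probe sets, 11 were bright enough to be tested, at a mean log2 value of at least 8.87, and the single Dbp probe set and a pair of Cry1 probe sets were not. The labelled cell type was set against its markers: 8 of the 12 collecting duct and epithelial markers on the array passed the same brightness filter, among them Krt8, Krt18, Krt19, Cdh1, Epcam and Pax8. By brightest probe set, 5640 of the 8251 singly annotated genes passed it too, a similar share. The count of markers therefore does not tell the cell type. Aqp2, Aqp4, Avpr2 and Hsd11b2 were below it. Of the markers of other cells on the array, 0 of 4 endothelial, 0 of 3 thick limb and distal tubule, 1 of 3 proximal tubule, 3 of 5 fibroblast and 2 of 4 leukocyte genes passed; their part in the results was not tested.

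None of the 7 clock genes with a tested probe set passed the test for a difference after 1 h of aldosterone, and Dbp was too dim to be tested. By limma with Benjamini-Hochberg adjustment, 0 of their 11 tested probe sets were called, as were 0 of all 7453 tested probe sets (0%). Without adjustment, 0 of the 11 had p under 0.05, against 72 of 7453 (0.966%), and the p-values of limma's fit ran from 0.0994 to 0.937. In RNA from whole cultures, a change in the share of cells that express a gene and a change in RNA per cell cannot be told apart. The log2 differences of the 11 lay between -0.19 and 0.61, with 8 higher and 3 lower by sign and a median of 0.06, beside a median of -0.000289 over all tested probe sets. The 95% interval of the difference stayed within 2-fold in either direction for 9 of the 11, beside 87.1% of all tested probe sets. The exceptions were a Csnk1d and an Nfil3 probe set, whose intervals reached 2.55-fold and 2.08-fold higher. With replication added to the fit as a block, 10 of the 11 stayed within 2-fold, beside 92.1% of all tested probe sets. On all 14 probe sets the aldosterone and vehicle arrays overlapped; groups apart were seen for 1.91% of tested probe sets with aldosterone higher and 2.27% with aldosterone lower.

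**Figure D1:**
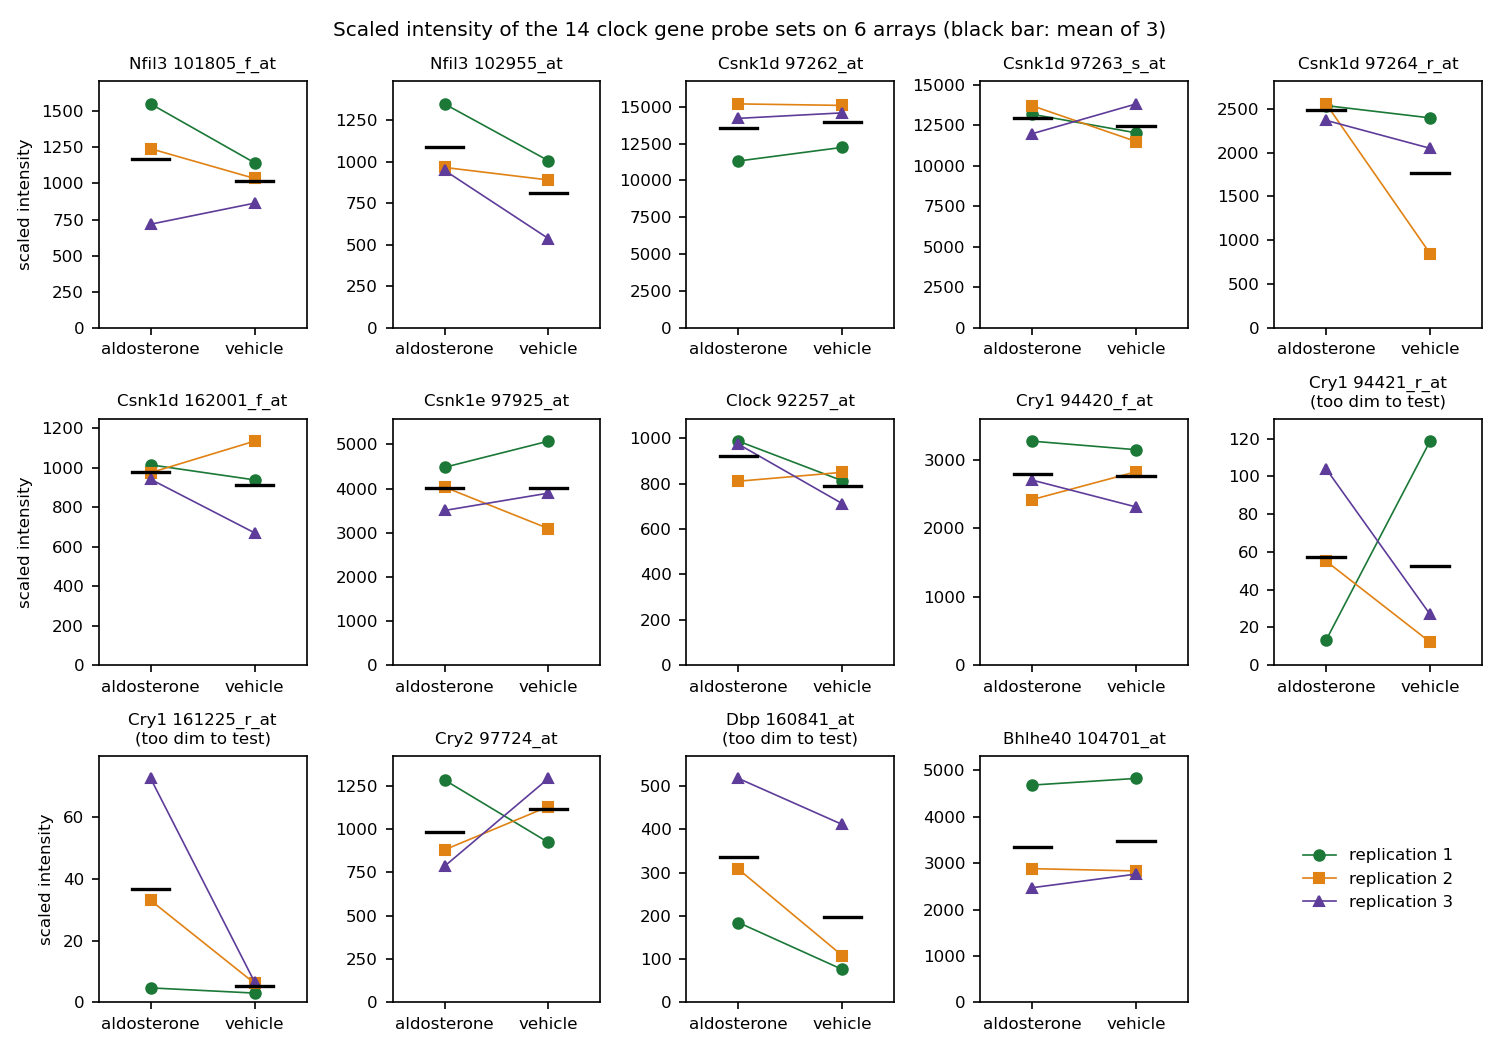
Scaled intensity (linear axis from 0) of the 14 probe sets of the 8 clock genes, with aldosterone left of vehicle; each symbol is 1 array, lines join the 2 arrays of a replication and black bars are means of 3 arrays. The treatments overlap in every panel, and Csnk1d 97264_r_at has 1 low array, the vehicle array of replication 2 at 848.

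Clock, the activating partner of BMAL1, did not pass the test for treatment. Its probe set 92257_at read 988, 811 and 974 on the aldosterone arrays of replications 1, 2 and 3, against 813, 850.2 and 712 on the vehicle arrays. Aldosterone was higher in replications 1 and 3 and lower in replication 2, and the groups overlapped. The means were 924 ± 98.4 with aldosterone and 792 ± 71.4 with vehicle (SD, n = 3 each). The log2 difference was 0.21 (standard error 0.219), with a 95% interval of -0.28 to 0.70 (limma, adjusted p = 0.9995).

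The cryptochromes, the repressors of the core loop, went different ways by sign and neither passed. The bright Cry1 probe set 94420_f_at read 3275, 2421 and 2705 with aldosterone and 3149, 2827 and 2312 with vehicle. Its log2 difference of 0.02 (standard error 0.184) had an interval of -0.39 to 0.43, so a change beyond 1.35-fold higher or below 0.761 of the vehicle level lay outside it. Cry2, probe set 97724_at, read 1284, 880.3 and 786 with aldosterone and 923, 1130.2 and 1293 with vehicle. It was 1.37-fold higher in replication 1 but 0.789 and 0.623 of the vehicle level in replications 2 and 3. The mean log2 difference was -0.19, standard error 0.248 (limma, adjusted p = 0.9995). Without replicate 3 it was 0.06.

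The other Cry1 probe sets were too dim to test. Probe set 94421_r_at, annotated with the same source sequence as the bright one, read 13.3, 55.1 and 104 with aldosterone and 119, 12.2 and 26.9 with vehicle. Its direction differed between replications. Probe set 161225_r_at read 4.70, 33.0 and 72.5 with aldosterone and 3.02, 6.21 and 6.62 with vehicle. Aldosterone was higher in 3 of 3 replications there, but all vehicle values and 2 of 3 aldosterone values lay below the pseudocount of 53.0, and the highest value stands on the rescaled array, where the deposited step of 0.1 is worth 2.42. In a fit of all 12422 probe sets without the brightness filter, it differed by 0.55 on the log2 scale, standard error 0.310 (limma, adjusted p = 0.9996).

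The casein kinases that act on PER proteins gave a single large value among 5 probe sets. Csnk1e, probe set 97925_at, read 4480.0, 4032 and 3503 with aldosterone and 5072, 3093 and 3896 with vehicle. It was lower in replications 1 and 3 and higher in replication 2, with a log2 difference of 0.02 (standard error 0.199) and an interval of -0.43 to 0.46. The brightest Csnk1d probe set, 97262_at, read 11317, 15190.4 and 14210.1 with aldosterone and 12243, 15088 and 14583 with vehicle. Its log2 difference of -0.05 had the interval -0.38 to 0.29, or 0.767-fold to 1.22-fold. On these 2 probe sets the range of the replication means exceeded the treatment difference, as it did for 89.5% of all tested probe sets. Neither passed limma's F test for replications with treatment as a covariate (adjusted p = 0.203 for Csnk1e and 0.0763 for 97262_at).

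The Csnk1d probe sets disagreed in the sign and the size of the difference, the brightest lying below 0 and the others above it, though none passed the test. Probe set 97264_r_at had 2485 ± 103 with aldosterone and 1764 ± 812 with vehicle (SD, n = 3 each). Its log2 difference was 0.61 (standard error 0.331), with an interval of -0.14 to 1.35. By replication it read 2535, 2554 and 2367 with aldosterone and 2395, 848 and 2048 with vehicle. It was higher in 3 of 3 replications, by 1.06-fold, 2.89-fold and 1.15-fold, and 1 array, the vehicle array of replication 2, decided its size. Without that array the log2 difference was 0.16. Probe set 97263_s_at, annotated with the same source sequence, read 13176, 13701 and 11979 with aldosterone and 12029, 11495 and 13816 with vehicle, and differed by 0.06 on the log2 scale (standard error 0.127). Probe set 162001_f_at differed by 0.12 (standard error 0.242), and on it the vehicle array of replication 2 was the highest of the 6 at 1133. With the replicate block, limma called 0 of all tested probe sets (0%). In that fit 97264_r_at was the 1 probe set of the 11 below 0.05 before adjustment (limma, adjusted p = 0.998), against 250 of 7453 (3.35%).

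Differences between probe sets of 1 gene were tested over the 6 arrays for 6 pairs, each against its gene's brightest. The largest was 0.65 on the log2 scale for Csnk1d 97264_r_at, and the exact permutation tests (two-sided) gave p = 0.3 to 0.9, with 0.72 as the lowest adjusted value. With 3 against 3 arrays p cannot go below 0.1. In the suffixes of such probe set names, s and f mark probes shared between transcripts or related genes and r marks relaxed rules of probe choice. The only tested Cry1 probe set, 94420_f_at, and the brightest of Nfil3, 101805_f_at, carry the f too. Which of these bears on Csnk1d, Cry1 or Nfil3 was not tested.

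**Figure D2:**
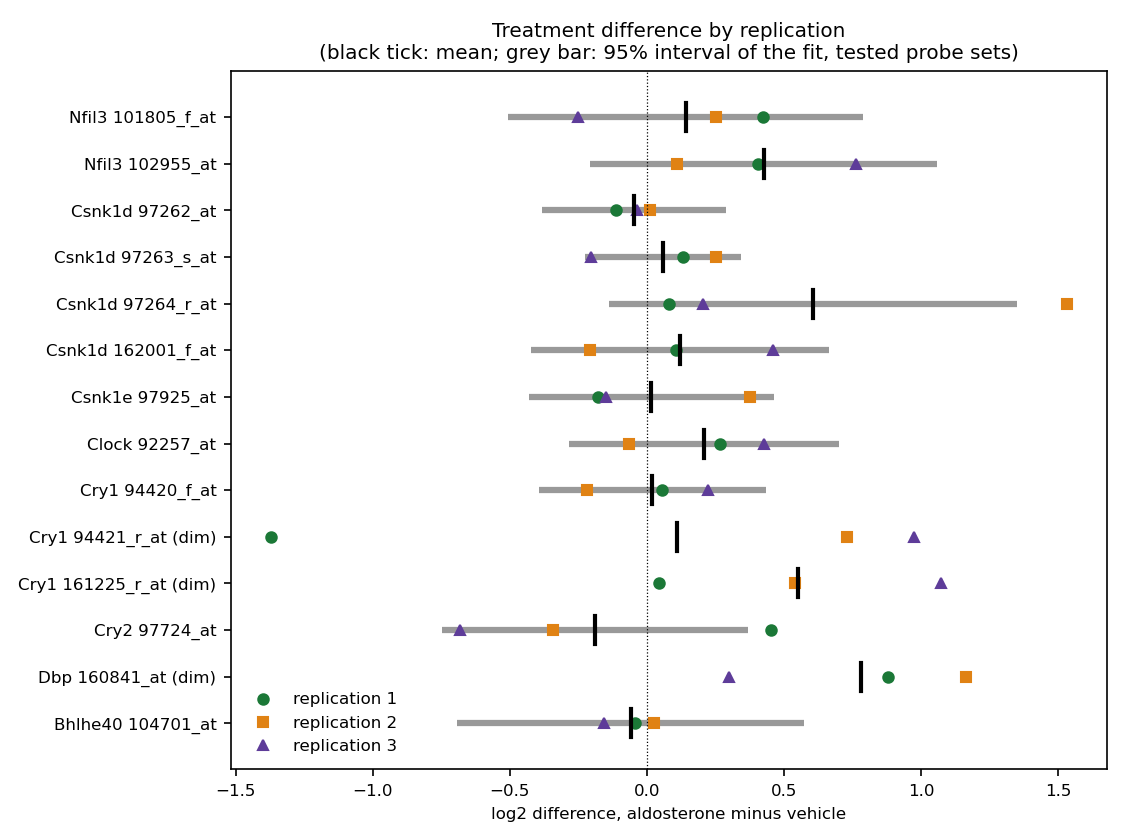
Log2 difference of aldosterone minus vehicle for the 14 probe sets. Coloured symbols are the 3 replications and black ticks their mean. Grey bars are the 95% interval of limma's fit on group alone for the 11 tested probe sets, and all include 0. The replication 2 symbol of Csnk1d 97264_r_at stands alone at 1.53.

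Bhlhe40, the E-box repressor, had nearby values on the 2 arrays of each replication. Its probe set 104701_at read 4680.4, 2881 and 2471 with aldosterone and 4824, 2831 and 2763 with vehicle. The folds within the replications were 0.971, 1.02 and 0.896. The log2 difference was -0.06. Its standard error was 0.281, or 0.115 with the replicate block, where the interval was -0.32 to 0.20. The low and high arrays of both treatments fell in the same replications.

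Neither of the D-box outputs passed a test for treatment. Each had a probe set that was higher in all 3 replications, as were 10.5% of all tested probe sets. That of Dbp was too dim to be among those tested. Nfil3, the D-box repressor, had 2 probe sets. Probe set 102955_at read 1347, 965 and 948 with aldosterone and 1006, 889.7 and 537 with vehicle. It was higher in 3 of 3 replications, by 1.32-fold, 1.08-fold and 1.70-fold, yet the groups overlapped. The means were 1087 ± 226 with aldosterone and 811 ± 244 with vehicle (SD, n = 3 each). The log2 difference was 0.43 (standard error 0.281), with an interval of -0.21 to 1.06 (limma, adjusted p = 0.9995). The other probe set, 101805_f_at, read 1551, 1241 and 718 with aldosterone and 1143, 1035 and 864 with vehicle. It was higher in replications 1 and 2 and lower in replication 3, with a log2 difference of 0.14 (standard error 0.288) and an interval of -0.51 to 0.79. Without replicate 1 this value was -0.000117.

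Dbp, the D-box activator, was too dim to be tested at the filter used. Its probe set 160841_at read 184, 308 and 517 with aldosterone and 76.1, 108 and 411 with vehicle. Aldosterone was higher in 3 of 3 replications, by 1.84-fold, 2.24-fold and 1.23-fold on the scale with the pseudocount. The groups still overlapped, both arrays of replication 3 being the high ones. The log2 difference was 0.78, and in the fit without the brightness filter its standard error was 0.545, or 0.409 with the replicate block (limma, adjusted p = 0.9996 and 0.998).

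Among the 11 tested probe sets, 2 were higher in all 3 replications, Nfil3 102955_at and Csnk1d 97264_r_at, against 10.5% of all tested probe sets. None of the 11 was lower in all 3, against 11.5%. With median scaling the count of higher ones was 1, Nfil3 102955_at, and with quantile normalization Bhlhe40 was lower in all 3.

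Bhlhe40 was the one tested probe set of the 8 genes that passed a test between replications. Limma's F test for replications, with treatment as a covariate, called 1 of the 11 tested probe sets, Bhlhe40, against 583 of 7453 (7.82%). Before adjustment 2 of the 11, Bhlhe40 and Csnk1d 97262_at, had p under 0.05, against 27.5%. Bhlhe40 was highest in replication 1 on both treatments, and the highest and lowest replication means lay 1.80-fold apart (adjusted p = 0.0146). Without the aldosterone or the vehicle array of replication 1 the adjusted p was 0.129 and 0.132, without replicate 1 it was 0.661, and without the intensity trend it was 0.126. The F test called 3 of the 11, Csnk1d 97264_r_at and Csnk1e besides Bhlhe40, without the aldosterone array of replication 2, and 2, Csnk1d 97262_at and Bhlhe40, without the treatment term. The range of the 3 replication means exceeded the treatment difference for 8 of the 11, beside 89.5% of all tested probe sets. These measures are unlike: a range over 3 means of 2 arrays, and a difference of 2 means of 3 arrays. By its build the range tends to be the larger, so this count is a description only.

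Dbp and Nfil3 stood in opposite order across the replications. On the aldosterone arrays Dbp was highest in replication 3 at 517 and lowest in replication 1 at 184, a ratio of 2.80. On the vehicle arrays it was highest in replication 3 at 411 and lowest in replication 1 at 76.1, a ratio of 5.40. The ratios in this paragraph are of intensities without the pseudocount. On the scale with it, used for the folds by treatment, the replication means of Dbp lay 2.94-fold apart. Both Nfil3 probe sets were highest in replication 1 and lowest in replication 3 on each treatment, with ratios of 2.16 and 1.42 on the aldosterone arrays and 1.32 and 1.87 on the vehicle arrays. These orders are descriptions of 3 replications. The share of all probe sets that keep the same order on both treatments was not counted. Shared orders can be common here, as all 6 arrays correlated best with the other array of their replication. The adjusted p of the F test was 0.189 for Nfil3 101805_f_at and 0.261 for 102955_at, and 0.173 for Dbp in the fit without the filter, where 4.81% of probe sets were called. The aldosterone array of replication 3 is the rescaled one; the vehicle array of replication 3, on the common deposited scale, had the same place in each order. What differed between the replications is not given in the labels and was not tested.

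**Figure D3:**
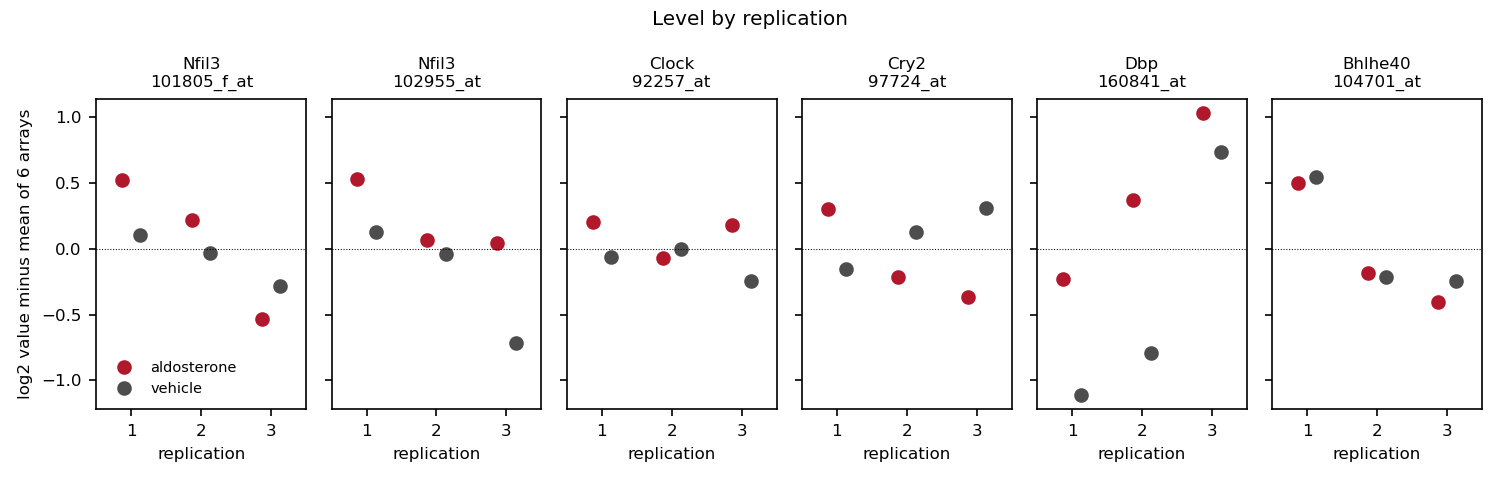
Log2 value minus the mean of the 6 arrays for 6 probe sets by replication, with aldosterone in red left of vehicle in grey; each point is 1 array. Bhlhe40 is highest in replication 1, Dbp in replication 3 and both Nfil3 probe sets in replication 1, while Clock and Cry2 show no order shared by both treatments.

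The replication means of Clock, Cry2 and a Csnk1d probe set were the closest together among the 11. The means lay 1.07-fold apart for Clock, 1.09-fold for Cry2 and 1.02-fold for Csnk1d 97263_s_at, beside a median log2 range of 0.37 over all tested probe sets. For these 3 the treatment difference was larger than the replication range. The closeness of the Cry2 means does not show a steady level: Cry2 was highest in replication 1 and lowest in replication 3 with aldosterone, and the reverse with vehicle. Its SD over the 6 arrays was 0.287 on the log2 scale, beside a median of 0.237 over all tested probe sets, and that of Clock was 0.168. For Cry1 94420_f_at and Csnk1e the replication means lay 1.28-fold and 1.34-fold apart, both highest in replication 1 (limma's F test, adjusted p = 0.302 and 0.203).

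**Figure D4:**
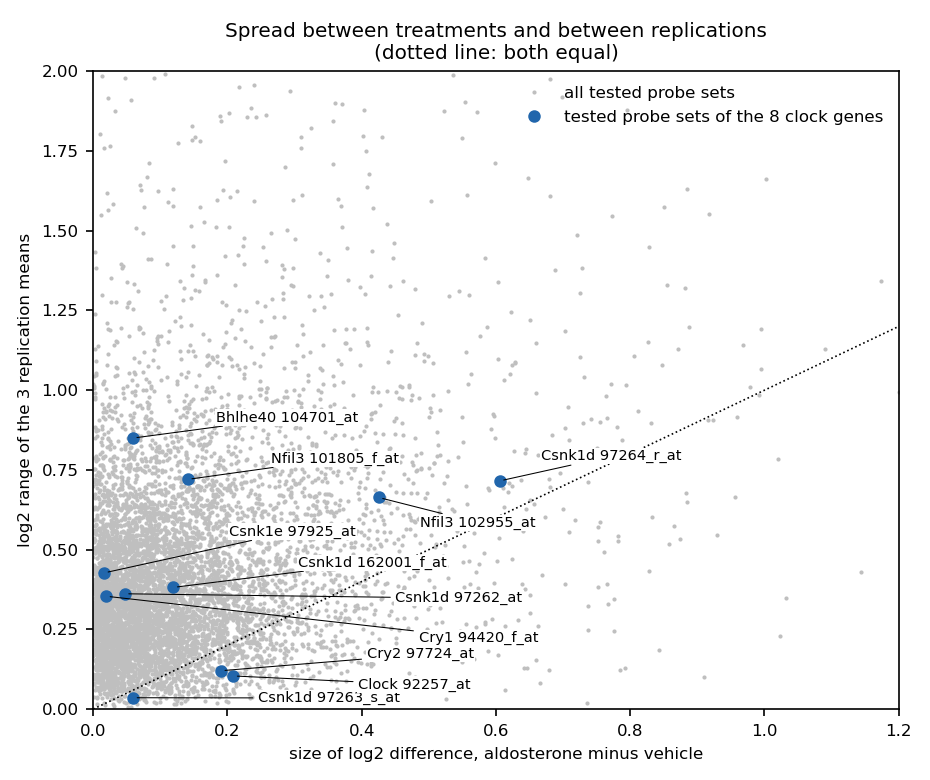
Size of the log2 difference between treatments (x axis) against the log2 range of the 3 replication means (y axis) for the 7453 tested probe sets in grey, of which 40 lie outside the axes, and the 11 of the clock genes in blue. Bhlhe40 lies at 0.06 and 0.85, above the dotted line of equal size, and Clock and Cry2 lie below it. The range, taken over more means of fewer arrays, tends to be the larger by its build.

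The other genes of the pathway were taken from a list of 51 further clock genes, kinases, phosphatases, ubiquitin ligases and cofactors. Of these, 37 were on the array and 32 were tested on their brightest probe set. By limma, 0 of the 32 were called in either direction, and 1, Per1, had an unadjusted p under 0.05, against 0.869% of tested genes. With the replicate block 0 were called and 2, Per1 and Dyrk1a, had an unadjusted p under 0.05, against 3.17%. By sign 12 were higher and 20 lower, with a median log2 difference of -0.04 beside -0.00211 over 5640 tested genes. Higher in all 3 replications were 3 of the 32, against 10.5% of tested genes, and lower in all 3 were 6, against 11.7%.

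Per1, the light- and steroid-responsive period gene, read 2765, 3047 and 2265 with aldosterone and 1118, 981 and 1170 with vehicle, the groups apart (limma, adjusted p = 0.242). In the fit on group alone its 95% interval, 0.84 to 1.67 on the log2 scale, lay above 0, while the intervals of all 11 probe sets above included 0. With the replicate block the interval of Per1 was 0.87 to 1.65, and that of Csnk1d 97264_r_at, 0.019 to 1.19, also lay above 0. The difference between Per1 and these genes was not tested. The others higher in all 3 replications were the nuclear receptor Nr1d2 (REV-ERB beta), a repressor of Bmal1, at 0.10 (standard error 0.267), and the protein kinase Prkca at 0.22 (0.186). Lower in all 3 were Arntl (Bmal1), the partner of CLOCK, at -0.29 (standard error 0.303), and the ubiquitin ligase subunit Btrc, which marks PER for degradation, at -0.21 (0.185). The kinase Dyrk1a, lower in all 3 as well, was at -0.28, with an interval of -0.51 to -0.04 in the fit with the replicate block (limma, adjusted p = 0.998). The phosphatase subunits Ppp2ca (-0.24) and Ppp1cb (-0.15) and the NAD synthesis enzyme Nampt (-0.15) were also lower in all 3. A dimmer probe set of Dyrk1a gave 0.15, and one of Btrc gave -0.17.

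Between replications, the F test called 3 of the 32 by their brightest probe sets, against 7.73% of tested genes: Nr1d2 (adjusted p = 0.0409), Ppp1cb (0.0215) and Dyrk1a (0.0265). Of all 47 tested probe sets of these genes it called 5, the other 2 being dimmer probe sets of Csnk2a1, the catalytic subunit of casein kinase 2. Csnk2a1 104545_at had a 4.32-fold range of replication means (limma's F test, adjusted p = 0.00101) and 104546_g_at a 2.73-fold range (0.00958), both highest in replication 1, while the brightest Csnk2a1 probe set was not called (0.383). Nr1d2 read 2150.4, 1639 and 2870 with aldosterone and 2098, 1460.0 and 2676 with vehicle, highest in replication 3 on both treatments, as Dbp was. Nr1d1 went the other way, lowest in replication 3 at 829 with aldosterone and 630 with vehicle, as was Arntl at 638 and 706. Neither was called (limma's F test, adjusted p = 0.285 and 0.194). Tef, a D-box activator related to Dbp, was highest in replication 3 with aldosterone at 3264 and in replication 2 with vehicle at 3163. Per2 was too dim to be tested, at 353, 268 and 338 with aldosterone and 343, 53.8 and 352 with vehicle.

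**Figure D5:**
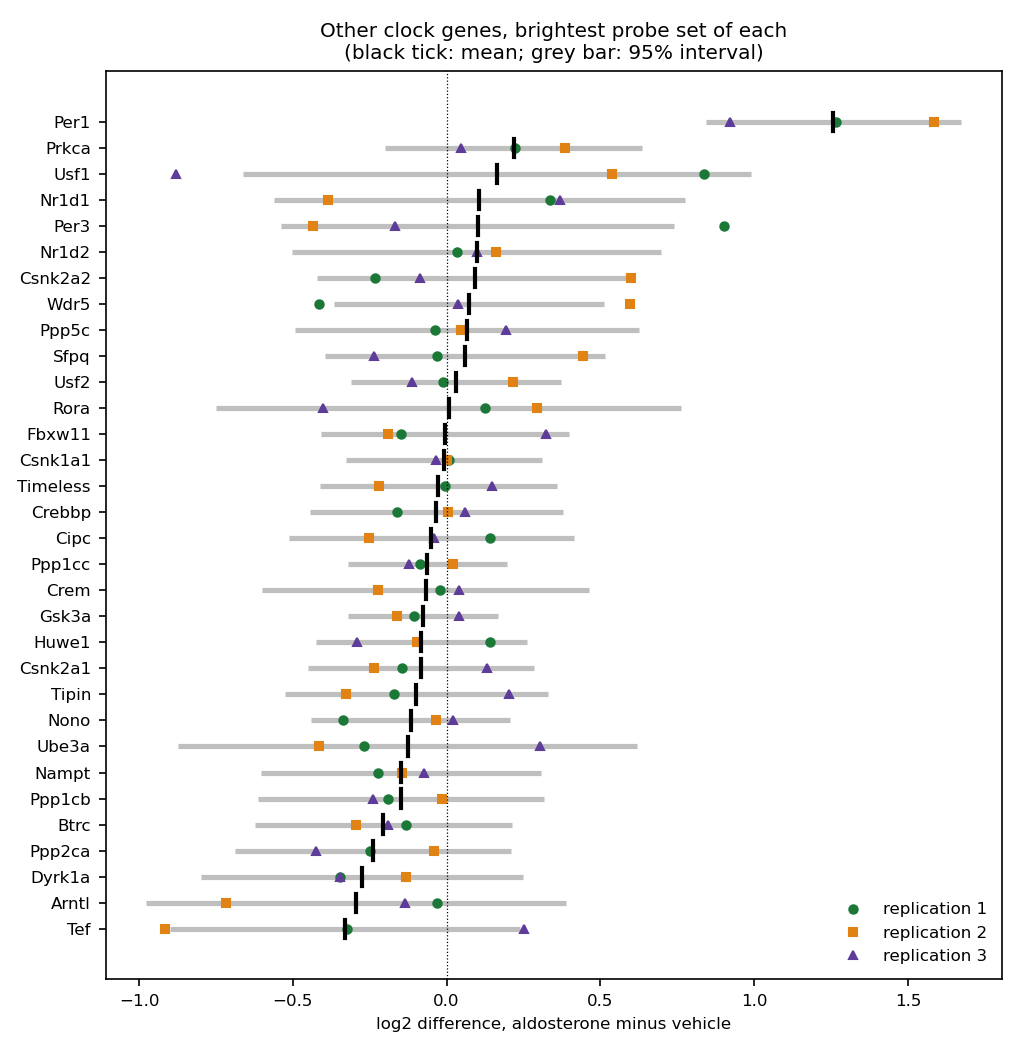
Log2 difference of aldosterone minus vehicle for the 32 tested other clock genes, each by its brightest probe set. Coloured symbols are replications, black ticks their mean and grey bars the 95% interval; in this fit, on group alone, Per1 is the one gene whose interval, 0.84 to 1.67, does not include 0.

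For each member with a tested brightest probe set, the tested gene with the most similar pattern was found as the smallest root mean square difference of centred log2 values over the 6 arrays, among 5639 other genes. The nearest were Fads1 for Csnk1d (0.0356), Rnf4 for Cry1 (0.0443), Sfpq for Csnk1e (0.0530), Cxadr for Bhlhe40 (0.0533), Zfp110 for Clock (0.0570), Polr1b for Nfil3 (0.0667) and Sf1 for Cry2 (0.0668). With so many genes and 6 arrays some close match is found for most patterns, and for all 6 arrays the highest correlation was within the replication.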

How the data were processed

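Each of the 6 samples was hybridized to 1 single-colour oligonucleotide array, per the labels. Linear intensities, with 1 value for every probe set on an array, are what the authors deposited; the sources used here do not give the scanner software or the scaling target. Symbols came from the array's annotation, and all 14 probe sets matched RefSeq by Entrez identifier with 0 symbols changed. As the 2% trimmed means differed by over 10%, each array was scaled to their mean, then log2(intensity + 53.0) was taken, the pseudocount being the 10th percentile. Fold changes on that scale understate changes of dim probe sets. Probe sets at or above the 40th percentile of mean log2 value were tested. Limma 3.58.1 in R 4.3.3 (lmFit, eBayes with intensity trend, two-sided) compared groups with no other term. P-values were adjusted by Benjamini-Hochberg over 7453 probe sets, with a threshold of 0.05. The comparison of groups was run on simulated arrays drawn without differences between replications, unlike these arrays. That run does not show how the fit performs here. An alternative fit added the replicate block. Replication numbers were taken as pairs, since the labels present a replication as 1 experiment and its arrays deviated together from the group means (correlations 0.377, 0.387 and 0.471).

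Alternatives were other scalings, pseudocounts and filters, the variance trend, the block and left-out arrays. The members, gene lists and tests were chosen with earlier results of these data known. Named genes were all probe sets of the 8 genes, other clock genes with 1 direction throughout the 3 replications, and the nearest gene by pattern. Tef, Per2, Nr1d1, Csnk2a1 and the dimmer probe sets of Creb1, Huwe1 and Sfpq were chosen once their values had been seen. A comparison of cryptochrome and casein kinase protein sequences was planned and is not analysed here.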

Additional observations from a re-analysis of the deposited data

How the results depend on the processing

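The count of probe sets of the 8 genes called for treatment, 0, was 0 under every alternative run. Over all probe sets the count was 5 where a filter at the 60th percentile was joined to the replicate block, a fit in which 1 of the other clock genes, Per1, was called. With the replicate block and no filter, tried after seeing the data, it was 6, Per1 again among them as the 1 other clock gene. It was 0 to 1 on leaving out arrays or replications. The replicate block alone changed no call, with 0 of 7453. Probe sets of the 8 genes higher in all 3 replications numbered 2, but 1 with median scaling, 4 without a filter on low values (Dbp and Cry1 161225_r_at were added) and 1 with the filter at the 60th percentile; 1 was lower, in place of 0, with quantile normalization. The cause was not tested, except that the filters change which probe sets are counted. Over the tested probe sets the log2 difference changed sign 17 times, each on leaving out an array or a replication, which unbalances the groups over replications where 1 array is left out. The ranges were -0.087 to 0.44 for Nfil3 101805_f_at, -0.14 to 0.078 for Csnk1d 97262_at, -0.037 to 0.19 for Csnk1d 97263_s_at and -0.076 to 0.28 for Csnk1d 162001_f_at. They were -0.16 to 0.20 for Csnk1e, -0.10 to 0.14 for Cry1 94420_f_at, -0.51 to 0.056 for Cry2 and -0.33 to 0.20 for Bhlhe40. Nfil3 102955_at (0.17 to 0.59), Csnk1d 97264_r_at (0.14 to 0.88), Clock (0.10 to 0.34) and the dim Dbp (0.42 to 1.34) kept their sign there. Of the untested Cry1 probe sets, 161225_r_at (0.27 to 0.83) did so too, and 94421_r_at (-0.32 to 0.85) changed sign in 5 of the 9 settings. Between replications, 583 probe sets and 1 of the 8 genes were called; these were 2 and 0 without the intensity trend, and 44 to 1292 and 0 to 3 on leaving out arrays or replications. Without the treatment term 2 of the 8 genes' probe sets were called. The mean of all tested probe sets in place of the brightest gave 0.18 for Csnk1d, against -0.05. Median scaling moved the median difference of all tested probe sets to 0.027. Low intensities limit Dbp and the dim Cry1 probe sets, most of all on the rescaled array.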
